A study of Mus musculus with 21 samples.

Results

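The oligoadenylate synthetase (OAS) family was followed through 7 mouse genes, Oas1a, Oas1b, Oas1c, Oas2, Oas3, Oasl1 and Oasl2, picked by their gene symbols. All 7 have a row among the 31553 features of the Neuro2a table and 6 among the 39008 features of the table of mouse nuclei, where Oasl1 has none; 6 genes are thus in both. The genes were picked with their higher levels in CRISPRa cultures already known, so for these 7 genes that comparison is a description, and whether they pass a threshold in it supports nothing.

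OAS enzymes bind double-stranded RNA and join ATP into short oligoadenylates. These act as second messengers of the antiviral response, which slows protein synthesis and viral growth. The genes are classic targets of type I interferon, which acts through factors that bind interferon-stimulated response elements in promoters.

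PolyA RNA was sequenced from 12 cultures of Neuro2a, a mouse neuroblastoma line, and from neuronal nuclei of 9 mice. The CRISPRa cultures (6 libraries) had received 750 ng of guide RNA plasmid and 750 ng of a plasmid for sadCas9-VP64, a catalytically dead Cas9 fused to a transcriptional activator, and the VP64 only cultures (6 libraries) the sadCas9-VP64 plasmid without a guide RNA. The library names place replicates 1 to 3 of both groups in a set 7 and replicates 4 to 6 in a set 8, without saying what the sets stand for. The mice were kept on a C57BL/6J background: 3 were Scn2a+/- and had been injected with rAAV for sadCas9-VP64 and for an Scn2a guide (Het CRISPRa), 3 were Scn2a+/- (Het) and 3 were wild type (WT). For the injected mice, 500 nL of rAAV had gone into the medial prefrontal cortex 4 weeks earlier, and NeuN-positive nuclei were sorted from 200 mg of cortex; the labels do not say whether Het and WT mice were injected, give no age, and do not say that the Neuro2a replicates are separate transfections, so that p-values measure only the spread between these libraries.

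Levels are CPM, counts per M (1e+06) reads of a library, and libraries held an estimated 15.5 to 21 M reads from Neuro2a cultures, or 15.5 to 20.1 M from nuclei. All 9 neuroblastoma markers were measured in Neuro2a, at a summed 868 to 1200 CPM over the libraries. None was at 0 throughout a group, but levels of single markers are not given. In the nuclei 5 of the same 9 markers were measured, at a summed 108 to 127 CPM. Neuronal markers summed to 2440 to 2720 CPM in the nuclei, oligodendrocyte ones to 88.3 to 108 CPM and microglial ones to 10.0 to 22.2 CPM. Scn2a, the targeted gene, averaged 4.61 ± 0.50 CPM in CRISPRa, against 3.09 ± 0.23 CPM in VP64 only cultures (SD, n = 6 each). In nuclei its mean was 271 ± 17.7 CPM in Het CRISPRa, 229.7 ± 28.7 CPM in Het mice and 250.3 ± 18.8 CPM in WT mice (SD, n = 3 each), with no comparison past the threshold. Tests are limma fits of log2(CPM + 0.5) over all genes, with Benjamini-Hochberg adjusted p under 0.05 as the threshold.

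All 7 OAS genes averaged more in CRISPRa than in VP64 only cultures. All 7 were past the threshold in the fit, where 15.0% of 14398 tested genes were and 10.0% upwards. Since this contrast served to pick the genes, nothing is read from that count. With 1 library left out it was 4 to 7, and calls over all genes were 1492 to 2404. The median log2 difference of the 7 was 0.89 and that of all tested genes 0.06. In 4 of them (Oas1b, Oas3, Oasl1 and Oasl2) the lowest CRISPRa library lay above the highest VP64 only library, which held for 5.74% of tested genes. Within a single library set, 3 CRISPRa libraries all lay above 3 VP64 only libraries for each of the 7, as they did for 21.9% of tested genes in set 8 and 34.6% in set 7. SEs of this comparison include the spread between the library sets; with the replicate number, which follows the set, as a block, the SE of Oas3 was 0.24 in place of 0.37 and that of Oas1a 0.12 in place of 0.27, and 4513 genes were called, against 2166. The authors' deposited table for the same groups gave log2 fold changes from 0.533 (Oas1c) to 2.02 (Oas3) for the 7 genes. In it Oas2 missed the threshold (adjusted p = 0.0586 by DESeq2), as did the paralog Oas1g (0.0591). These values are a description too, because the genes were picked on this contrast. In bulk RNA, more cells that use a gene and more RNA per cell cannot be told apart.

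**Figure D1:**
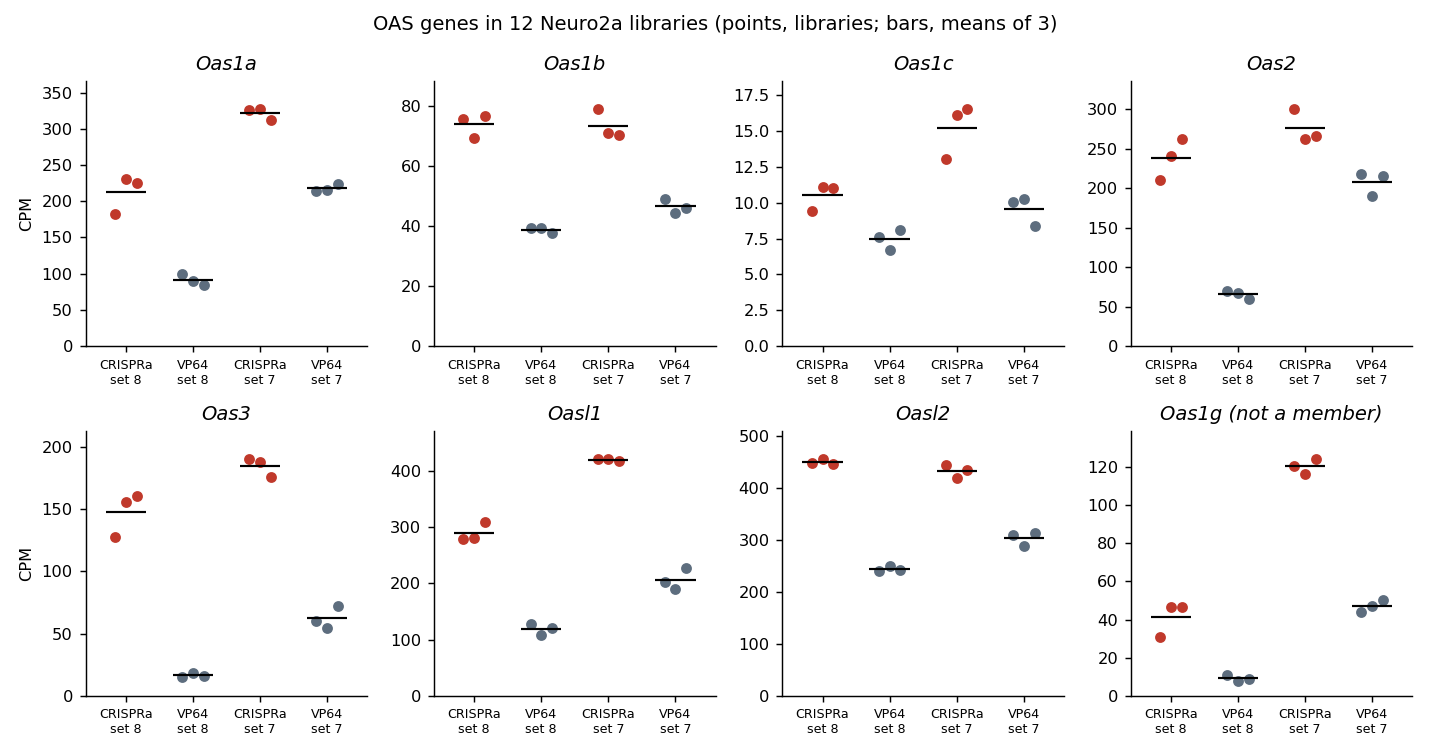
CPM of the 7 OAS genes and of the paralog Oas1g in each Neuro2a library (points) with the mean of 3 (bars), by group and library set; each vertical axis starts at 0 and has its own scale. Within a set, the CRISPRa points lie above the VP64 only points in every panel. The VP64 only points of set 8 lie lowest, at 15.4 to 18.6 CPM for Oas3.

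Oas3, the largest of the synthetases, had the widest difference. In set 8 it stood at 127, 156 and 160 CPM in CRISPRa, against 15.4, 18.6 and 16.1 CPM in VP64 only. In set 7 it stood at 190, 188 and 176 CPM in CRISPRa, against 60.1, 54.3 and 72.1 CPM in VP64 only. Every CRISPRa library was above every VP64 only library, and set 8 was the lower set in both groups, most of all in VP64 only. Over all 12 libraries the log2 difference was 2.34 (SE 0.37), and the ratio of mean CPM was 8.86 in set 8 and 2.97 in set 7.

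Oas2, a synthetase with more than 1 OAS unit in its chain, followed the same layout at a higher level. In set 8 it measured 210, 241 and 262 CPM in CRISPRa libraries, against 69.8, 66.6 and 59.9 CPM in VP64 only. In set 7 it measured 300, 262 and 266 CPM in CRISPRa libraries, against 218, 190 and 215 CPM in VP64 only. The groups overlap over the 12 libraries, because VP64 only libraries of set 7 reach the lowest CRISPRa library of set 8. Its log2 difference was 1.13 (SE 0.33), and the ratio of means was 3.63 in set 8 and 1.33 in set 7.

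Oas1a, an enzymatically active member of the expanded mouse Oas1 group, measured 182, 231 and 226 CPM in CRISPRa libraries, against 99.4, 89.2 and 84.8 CPM in VP64 only libraries of set 8. In set 7 it measured 325, 327 and 313 CPM in CRISPRa libraries, against 214, 215 and 224 CPM in VP64 only. Set 7 was the higher set in both groups, and the log2 difference between the groups was 0.89 (SE 0.27).

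Oas1b is the gene whose full-length form protects some mouse strains from flaviviruses, and RefSeq lists the C57BL/6J copy as a transcribed pseudogene. It varied little within a group, with a lowest, median and highest level of 69.4, 73.4 and 78.9 CPM in CRISPRa, against 37.6, 42.0 and 49.1 CPM in VP64 only. The groups stayed apart in all 12 libraries, and the log2 difference was 0.79 (SE 0.07). Oas1c, a further Oas1 paralog, was the lowest of the 7, with a lowest, median and highest level of 9.44, 12.0 and 16.5 CPM in CRISPRa, against 6.69, 8.22 and 10.3 CPM in VP64 only. Its groups overlapped across sets, and its log2 difference of 0.55 (SE 0.15) was the smallest of the 7.

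The OAS-like genes encode proteins with a ubiquitin-like tail. Oasl1, known in mouse as a repressor of Irf7 translation, had a lowest, median and highest level of 279, 364 and 421 CPM in CRISPRa, against 108, 159 and 228 CPM in VP64 only. The groups did not overlap, and the log2 difference was 1.16 (SE 0.19). Oasl2, the other mouse OAS-like gene, was at 419, 445 and 456 CPM in CRISPRa at the same marks, against 240, 268 and 313 CPM in VP64 only. Its CRISPRa libraries were close together in both sets, and the log2 difference was 0.70 (SE 0.07).

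Levels of different genes can be set side by side per length, here as mean CPM per kb of merged exons (SD, n = 3), within each library set since the order differed between sets. In set 8, CRISPRa cultures had Oasl2 highest at 144 ± 1.5, then Oasl1 at 131 ± 7.82 and Oas1a at 113 ± 14.3, all without overlap of their ranges. Oas2 followed at 59.9 ± 6.6, Oas1b at 40.2 ± 2.18, Oas3 at 31.3 ± 3.78 and Oas1c at 4.58 ± 0.402 CPM per kb, also without overlap. VP64 only cultures of set 8 had Oasl2 at 78.1 ± 1.47, then Oasl1 at 53.9 ± 4.64 and Oas1a at 48.3 ± 3.96, whose ranges overlapped. There Oas1b (21.1 ± 0.565) stood above Oas2 (16.5 ± 1.28), and Oas3 (3.53 ± 0.366) overlapped Oas1c (3.26 ± 0.312 CPM per kb). In set 7, CRISPRa cultures had the order Oasl1 (190 ± 0.705), Oas1a (171 ± 4.12), Oasl2 (138 ± 4.01) and Oas2 (69.7 ± 5.16) without overlap, and Oas1b (39.9 ± 2.6) and Oas3 (39.1 ± 1.59) overlapped above Oas1c (6.64 ± 0.836 CPM per kb). VP64 only cultures of set 7 had Oas1a highest at 116 ± 2.83, with Oasl2 (97.2 ± 4.45) and Oasl1 (93.6 ± 8.73) overlapping below it. There Oas2 (52.3 ± 3.87) stood above Oas1b (25.3 ± 1.26), the reverse of set 8, and Oas3 (13.2 ± 1.93) above Oas1c (4.17 ± 0.455 CPM per kb). The place of Oas1a in these orders rests on an uncertain split of reads with its close copy Oas1g, described next.

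Oas1a has a close copy, Oas1g, the other enzymatically active mouse Oas1 gene, and 57.6% of the 50-base words of the Oas1a transcript also occur in Oas1g. Neither gene had a whole number of estimated reads in any of the 12 Neuro2a libraries, within 0.01 of a read, while their sum did in 11 and the sum with Oas1b in all 12. The split between Oas1a and Oas1g is therefore uncertain. Oas2 had a whole number of estimated reads in 7 of the 12 libraries. Oas1g as listed averaged 41.3 ± 9.12 CPM in CRISPRa libraries, against 9.09 ± 1.73 CPM in VP64 only libraries of set 8. In set 7 it averaged 121 ± 3.87 CPM in CRISPRa libraries, against 47.1 ± 3.31 CPM in VP64 only libraries (SD, n = 3 each). The sum of both copies, which does not rest on the split, averaged 254 ± 36.1 CPM in CRISPRa libraries, against 100.2 ± 8.98 CPM in VP64 only libraries of set 8. In set 7 that sum averaged 442 ± 4.72 CPM in CRISPRa libraries, against 265 ± 8.49 CPM in the VP64 only ones.

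**Figure D2:**
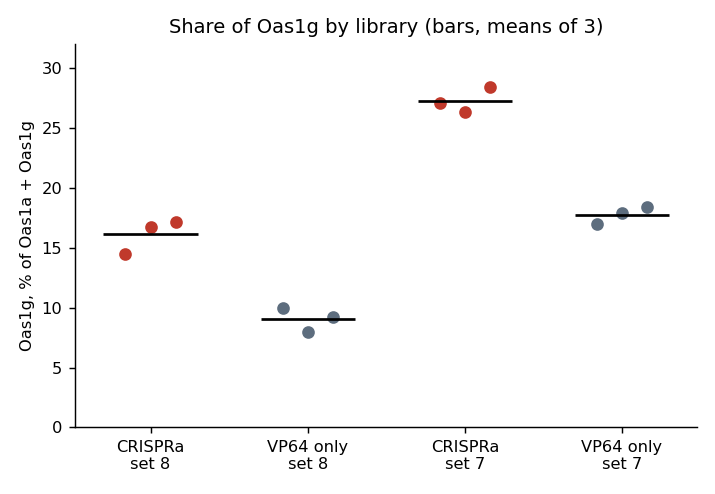
Oas1g as a percentage of the summed CPM of Oas1a and Oas1g in each Neuro2a library (points), with the mean of 3 (bars), by group and library set. The mean share was 16.1% in CRISPRa and 9.03% in VP64 only cultures of set 8, and 27.3% in CRISPRa and 17.7% in VP64 only cultures of set 7.

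The other Oas1 paralogs were nearly silent in Neuro2a. Oas1d, Oas1e, Oas1f and Oas1h had between 0 and 7 reads in any library, where the floor of 3 reads corresponds to 0.143 to 0.193 CPM. All OAS genes lie on chromosome 5, in the order Oasl2, Oasl1, Oas2, Oas3, Oas1e, Oas1c, Oas1b, Oas1f, Oas1h, Oas1g, Oas1a and Oas1d in RefSeq GRCm38.p6. Oas1e, Oas1f and Oas1h, near silent, thus lie between genes of the group that were expressed.

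Promoter windows of 300 bases (250 before and 50 after the annotated start) were found in RefSeq GRCm38.p6 for 5 of the 7 genes and for Oas1g; Oas2 and Oas1b have no window here. The windows that hold a core form of the interferon-stimulated response element (GAAA, any 2 bases, then GAAA) are printed because they belong to genes that were higher together; capitals mark the matches, on either strand, and overlapping matches run together.
Oas3: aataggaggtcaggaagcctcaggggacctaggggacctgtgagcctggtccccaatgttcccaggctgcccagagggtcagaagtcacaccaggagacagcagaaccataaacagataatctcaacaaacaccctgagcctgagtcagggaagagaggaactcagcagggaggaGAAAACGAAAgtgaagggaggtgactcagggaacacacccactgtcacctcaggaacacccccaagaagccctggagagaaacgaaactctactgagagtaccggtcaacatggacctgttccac
Oas1a: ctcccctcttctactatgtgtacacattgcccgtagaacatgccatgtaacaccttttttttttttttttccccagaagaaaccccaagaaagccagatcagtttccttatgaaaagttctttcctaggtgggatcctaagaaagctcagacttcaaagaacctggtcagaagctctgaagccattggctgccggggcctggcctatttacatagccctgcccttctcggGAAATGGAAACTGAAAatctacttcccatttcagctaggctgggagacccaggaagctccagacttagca
Oas1g: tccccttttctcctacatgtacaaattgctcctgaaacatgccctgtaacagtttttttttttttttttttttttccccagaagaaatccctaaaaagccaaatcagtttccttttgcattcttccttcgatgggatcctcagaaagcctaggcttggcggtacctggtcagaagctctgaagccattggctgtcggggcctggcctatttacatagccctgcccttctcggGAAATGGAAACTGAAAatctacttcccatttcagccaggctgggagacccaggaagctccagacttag
Oas1c: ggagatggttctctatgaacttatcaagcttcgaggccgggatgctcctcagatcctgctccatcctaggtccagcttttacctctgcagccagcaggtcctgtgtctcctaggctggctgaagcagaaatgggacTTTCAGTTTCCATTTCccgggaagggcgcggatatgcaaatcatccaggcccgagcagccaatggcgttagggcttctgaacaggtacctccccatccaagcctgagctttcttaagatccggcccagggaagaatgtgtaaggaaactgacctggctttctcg
These windows are Oas3 at chr5:120777610-120777909, Oas1a at chr5:120907476-120907775, Oas1g at chr5:120887564-120887863 and Oas1c at chr5:120812465-120812764, all on the minus strand and printed in the direction of the gene. Oas1a and Oas1g had 2 overlapping matches each, from 20 to 5 bases before the start in Oas1a and from 18 to 3 in Oas1g, in windows that are 85.3% identical over their alignment. Oas1c also had 2 overlapping matches, on the opposite strand from 114 to 99 bases before the start, and Oas3 had 1, from 75 to 66 bases before the start. The motif, searched on both strands, occurs in 1131 of 32851 such windows (3.44%).

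**Figure D3:**
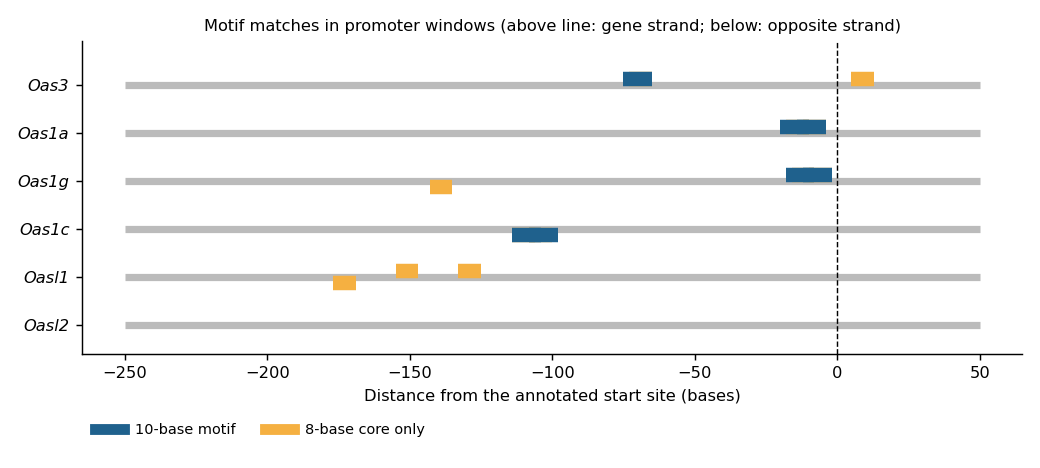
Positions of motif matches in the promoter windows of 5 OAS genes and Oas1g, by distance from the annotated start site; grey lines are the windows, blue marks the 10-base motif and orange the shorter 8-base form where it stands alone. Matches directly before the start are seen in Oas1a and Oas1g, and Oasl2 has none of either form.

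The windows of Oasl1 and Oasl2 did not hold these 10 letters. A shorter form (AA, any 2 bases, then GAAA), which lies inside the longer motif and was added after the first search, occurs in 23.9% of all windows; Oasl1 had 3 matches to it and Oasl2 had 0. Matches are letters in a window and were not tested for binding.

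Among genes that act on oligoadenylates or beside them, Pde12, an oligoadenylate phosphodiesterase, averaged 51.1 ± 2.96 CPM in CRISPRa libraries, against 41.5 ± 1.97 CPM in VP64 only cultures (SD, n = 6 each). Its read estimates were not whole in any of the 12 libraries, so its level is uncertain, like those of Oas1a and Oas1g. Its log2 difference of 0.30 (SE 0.06) passed the threshold with an adjusted p of 0.00392 by limma. Abce1, a ribosome recycling factor, differed by 0.03 (SE 0.06, adjusted p = 0.822 by limma) and Akap7, which in mouse has a phosphodiesterase domain able to cut oligoadenylates, by 0.02 (SE 0.08, adjusted p = 0.872 by limma). Those small differences of Abce1 and Akap7 turned negative under median-of-ratios scaling.

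Genes of RNA sensing and interferon signalling were counted from lists, and their order relative to the OAS genes was not tested. Of the 8 sensors tested, 6 were past the threshold upwards in CRISPRa cultures and 0 downwards, with a median log2 difference of 0.76, where 10.0% of all tested genes passed upwards and the median of all genes was 0.06. Zbp1, which binds Z-form nucleic acids, differed most, at 43.5 ± 24.2 CPM in CRISPRa libraries, against 4.23 ± 3.99 CPM in VP64 only cultures, a log2 difference of 3.64 (SE 0.64). Dhx58, which encodes LGP2, differed by 1.14 (SE 0.20), and Ifih1, which encodes the RNA sensor MDA5, by 1.02 (SE 0.16). Of 9 signalling genes, 5 passed upwards and 0 downwards, against the same 10.0% of all genes upwards, with a median of 0.18, and Irf7 (1.05, SE 0.29), Stat2 (1.03, SE 0.31) and Irf1 (1.02, SE 0.11) differed most. The calls of Irf7 and Stat2 were lost with no filter and without CRISPRa replicate 1, 2 or 3 or VP64 only replicate 4, 5 or 6 (adjusted p by limma up to 0.0577 for Irf7 and 0.095 for Stat2). Among the interferon ligands, Ifnb1 alone of 20 has a row in the Neuro2a table, with 3 reads summed over the CRISPRa libraries and 0 over the VP64 only libraries, at or under the floor; the other 19 were not analysed here in Neuro2a. These lists were drawn up with an interferon pattern in these libraries already known.

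Genes whose pattern over the 12 Neuro2a libraries was most like a member were ranked by the root mean square difference of centred log2 levels, over 14398 genes, and the 2 nearest genes outside the 7 are named. Nearest to Oas3 were Sp100 (0.242) and Samd9l (0.253), and nearest to Oas2 were Irf7 (0.102) and Ifi44 (0.112). Nearest to Oas1a were Usp18 (0.101) and Cmpk2 (0.146), to Oas1b Znfx1 (0.088) and Parp14 (0.121), and to Oas1c Trmt61a (0.101) and Gm12346 (0.106). Nearest to Oasl1 were Dhx58 (0.072) and Ube2l6 (0.086), and to Oasl2 Trim12c (0.081) and Ctsb (0.094). Among the 7 themselves, Oas1b and Oasl2 were 0.075 apart, closer than either was to any gene outside the 7, and Oas3 and Oas1c, at 1.065, were the farthest apart.

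The library sets were compared within each group, a contrast drawn from the same libraries as the one used to pick the genes. A set difference of interferon genes was already known, so the p-values of these genes are a description and no independent support. In VP64 only cultures, all 7 genes were lower in set 8 than in set 7 and past the threshold, where 45.7% of genes were and 25.9% downwards, and for all 7 the sets did not overlap, as for 30.3% of genes downwards. Oas3 averaged 16.7 ± 1.73 CPM in set 8 and 62.2 ± 9.11 CPM in set 7 (SD, n = 3 each), a log2 difference of -1.86 (SE 0.09, adjusted p = 4.53e-12 by limma). Oas2 averaged 65.5 ± 5.05 CPM in set 8 and 207 ± 15.3 CPM in set 7, a difference of -1.66 (SE 0.07, adjusted p = 8.94e-13 by limma). The differences were -1.26 (SE 0.07) for Oas1a, -0.79 (SE 0.06) for Oasl1, -0.33 (SE 0.12) for Oas1c, -0.32 (SE 0.04) for Oasl2 and -0.26 (SE 0.06) for Oas1b. The call of Oas1c, with an adjusted p of 0.0346 by limma, was lost without VP64 only replicate 1, 2, 4 or 5, with no filter and under median-of-ratios scaling. The median of the 7 was -0.79 and that of all genes -0.03.

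In CRISPRa cultures the sets lay closer for most of these genes. There 5 of the 7 were lower in set 8 and past the threshold, where 54.7% of genes were and 33.4% downwards: Oas1a (-0.60), Oasl1 (-0.54), Oas1c (-0.51), Oas3 (-0.33) and Oas2 (-0.22). Oas2 lost its call without CRISPRa replicate 1 or 4, with no filter, under median-of-ratios scaling and with robust eBayes. Oas1b averaged 74.0 ± 4.01 CPM in set 8 and 73.4 ± 4.79 CPM in set 7, and Oasl2 450.3 ± 4.69 CPM in set 8 and 432 ± 12.5 CPM in set 7; neither passed (adjusted p = 0.876 for Oas1b and 0.221 for Oasl2 by limma), although Oasl2 did under median-of-ratios scaling, at a log2 difference of 0.14.

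The CRISPRa difference itself was larger in set 8 than in set 7 for 6 of the 7 genes past the threshold, where 21.8% of genes passed and 9.42% upwards. Oas3 differed between CRISPRa and VP64 only by 3.11 (SE 0.09) in set 8 and 1.57 (SE 0.08) in set 7 on the log2 scale, and the gap of 1.54 (SE 0.13) had an adjusted p of 1.36e-07 by limma. Oas2 differed by 1.85 (SE 0.07) in set 8 and 0.41 (SE 0.06) in set 7, a gap of 1.436 (SE 0.10, adjusted p = 1.94e-08 by limma). The gap was 0.66 (SE 0.10) for Oas1a, 0.37 (SE 0.06) for Oasl2, 0.27 (SE 0.09) for Oas1b and 0.26 (SE 0.09) for Oasl1. Oas1c had a gap of -0.18 (SE 0.18, adjusted p = 0.518 by limma). The call of Oas1b was lost without CRISPRa replicate 2, 3, 4 or 6, without VP64 only replicate 1 or 6, and with no filter. The call of Oasl1 was lost without CRISPRa replicate 1, 2, 3 or 6, without VP64 only replicate 1, 3, 5 or 6, with no filter, under quantile scaling and with robust eBayes. That interferon genes as a list differ between the sets was known beforehand, so these tests are not independent support.

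**Figure D4:**
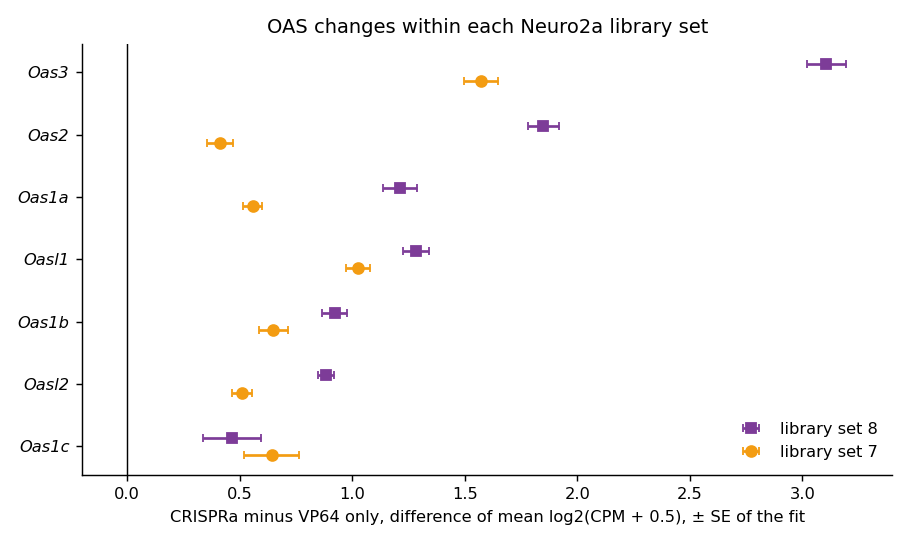
Difference of mean log2(CPM + 0.5), CRISPRa minus VP64 only, for each OAS gene in library set 8 (squares) and library set 7 (circles), with the SE of the fit within that set as bars. Oas3 (3.11 in set 8, 1.57 in set 7) and Oas2 (1.85 in set 8, 0.41 in set 7) are the most spread, and the bars of Oas1c overlap.

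Transgene reads moved with the sets too. The sadCas9-VP64 feature averaged 599.8 ± 34.3 CPM in set 8, against 1977 ± 256 CPM in set 7, among the CRISPRa libraries, and 349 ± 27.5 CPM in set 8, against 2550 ± 83.7 CPM in set 7, among the VP64 only libraries (SD, n = 3 each). A second transgene feature, McherryPuro, was at 1574 to 5782 CPM in CRISPRa libraries and at 0 in every VP64 only library. The part of transgene levels in the OAS values was not tested, and guide RNA and the presence of a second plasmid cannot be told apart in this design.

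In the NeuN-sorted nuclei, OAS RNA was scarce. Of the 6 genes in that table, Oas1b, Oas1c and Oas2 passed the filter on low values, and 0 of these 3 were called in any comparison by limma. The share called among 18967 genes was 0.0422% for Het CRISPRa minus Het, 0.00527% for Het CRISPRa minus WT and 0% for Het minus WT, with 996, 335 and 951 genes at an unadjusted p under 0.05. Oas1b reached 0.5 CPM in Het CRISPRa replicates 1 and 3 and in 1 WT library, so that it passed the filter mainly through the group where it was high, and its unadjusted p is not given. The authors' deposited table gave Oas1b a log2 fold change of 2.47 (SE 0.88, adjusted p = 0.659) for Het CRISPRa against Het, the smallest adjusted p it lists for an OAS gene in the mouse comparisons. CPM of nuclei and of Neuro2a come from tables normalized separately and are not compared.

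Het CRISPRa replicate 1 stood apart from the other nuclei libraries for Oas1b, Oas2 and Oasl2. Oas1c was highest in Het replicate 1, at 3.02 CPM, against 1.95 CPM in Het CRISPRa replicate 1. Oas1a and Oas3, at or under the floor, were highest in Het CRISPRa replicates 1 and 3, respectively. Oas1b was at 4.19, 0.31 and 1.17 CPM in Het CRISPRa replicates 1, 2 and 3, at 0.119, 0.484 and 0.398 CPM in Het, and at 0.358, 0.659 and 0.064 CPM in WT. Oas2 was at 4.14, 0.558 and 0.502 CPM in Het CRISPRa, at 0.534, 0.061 and 0.746 CPM in Het, and at 0.418, 0.608 and 0.322 CPM in WT. Oasl2 was at 3.79, 0.124 and 1.28 CPM in Het CRISPRa, at 0, 0 and 0.298 CPM in Het, and at 0.298, 0.405 and 0 CPM in WT. For Oas1b, Oas2 and Oasl2 the first Het CRISPRa library was highest of the 9. It was highest for 6.83% of 18967 tested genes, which do not include Oasl2. The second Het CRISPRa library lay within the range of the Het and WT libraries. The third lay above all Het and WT libraries for Oas1b and Oasl2 and within their range for Oas2.

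**Figure D5:**
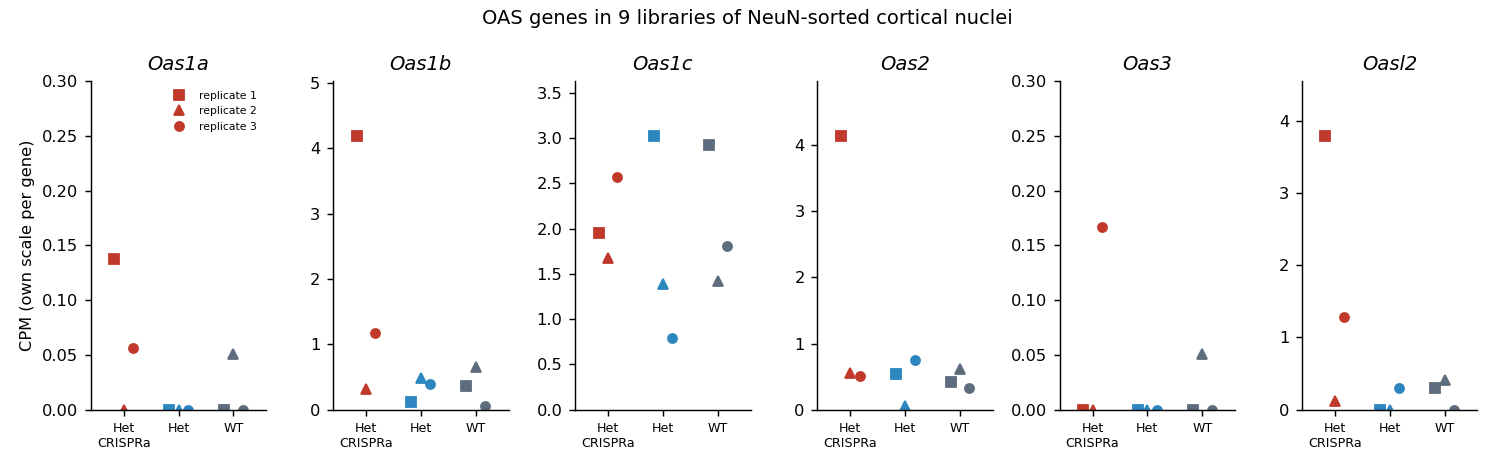
CPM of the 6 OAS genes measured in NeuN-sorted nuclei by library, in Het CRISPRa, Het and WT mice (squares, triangles and circles mark replicates 1, 2 and 3); each axis starts at 0 and has its own scale. Het CRISPRa replicate 1 is highest for Oas1b, Oas2 and Oasl2, at 73 reads for Oas1b, 72 for Oas2 and 66 for Oasl2.

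The high values of Oas1b, Oas2 and Oasl2 in that library rest on 73, 72 and 66 reads. Of 15 sensor and signalling genes tested in nuclei, 3 (Rigi, Eif2ak2 and Irf7) were highest in it. Het CRISPRa replicate 3 was highest for 4 and Het replicate 1 for 3. Of 18967 tested genes, 6.83% were highest in Het CRISPRa replicate 1, 9.92% in Het CRISPRa replicate 3 and 17.7% in Het replicate 1. Irf7, the interferon regulatory factor, ranged over 0.93 to 4.48 CPM in Het CRISPRa, 0.424 to 1.09 CPM in Het and 0.772 to 1.27 CPM in WT. Het CRISPRa replicate 1 held 124 reads of the sadCas9-VP64 feature, against 66 and 79 in the other Het CRISPRa libraries and 0 in Het and WT libraries. Reads of the other transgene feature, McherryPuro, were closer, at 32 in Het CRISPRa replicate 1 and 26 in each of replicates 2 and 3. The 6 microglial markers, all measured and none at 0 across the Het CRISPRa group, summed to 14.4 CPM in Het CRISPRa replicate 1. That lay within the range of 10.0 to 22.2 CPM over all 9 libraries. The part of injection or transgene level in these values was not tested.

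For single genes in nuclei, exact permutation tests on mean CPM (two-sided, 3 against 3, smallest possible p 0.1) gave 0.3 for Oas1b, 0.5 for Oas2, 0.7 for Oas1c and 0.2 for Oasl2 between Het CRISPRa and Het. Oas2 averaged 1.73 ± 2.08 CPM in Het CRISPRa, 0.447 ± 0.351 CPM in Het mice and 0.449 ± 0.146 CPM in WT mice (SD, n = 3 each). Its log2 difference from Het was 0.92 (SE 0.52) with all libraries and 0.20 without Het CRISPRa replicate 1, and from WT 0.85 (SE 0.52) and 0.13. Without that library Oas1b did not pass the filter and has no value. Oas1c was the most even of the family in nuclei, at 2.06 ± 0.46 CPM in Het CRISPRa, 1.74 ± 1.15 CPM in Het mice and 2.05 ± 0.78 CPM in WT mice. Oas3 and Oas1a had between 0 and 3 reads in every library, at or under the floor.

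Abce1, Pde12 and Akap7 were not called in any of the 3 comparisons of nuclei. Of the 20 interferon ligands, 9 have a row in this table and none passed the filter, with 1 to 12 reads each summed over the 9 libraries.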

How the data were processed

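Deposited values were used as given. The authors' tables of levels hold CPM, per the file headers. Builds mm39 and GRCm39 and the tools STAR (2.7.8a), featureCounts, R (4.4) and DESeq2 (1.44) stand in the submitters' processing notes; how CPM was made and reads with several alignments were shared is not given in the sources used here. The authors' deposited DESeq2 tables also hold a mean signal per gene, a log2 fold change with its SE, a Wald score and p-values; only log2 fold changes and adjusted p-values of OAS genes were used, with the WT against Het sign turned.

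A gene entered the test if it reached 0.5 CPM in 6 or more Neuro2a or 3 or more mouse libraries. The test was limma 3.58.1 in R 4.3.3 (lmFit, eBayes with trend) on log2(CPM + 0.5), so fold changes of low genes are understated. Adjustment was by Benjamini-Hochberg over 14398 and 18967 genes, with 0.05 as the threshold, and transgene features stayed out. All 12 Neuro2a libraries entered as 2 groups, or as 4 means of group and set for the set contrasts, and all 9 mouse libraries as 3 groups. The fits were also run on simulated counts with changes added to some genes. Those counts held no general difference between library sets, so the runs do not test the fits under one. Plots, exact tests and sequence work used Python 3.11.15, scipy 1.17.1 and biopython 1.88.

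Depth was estimated from the most frequent CPM value above 0, taken as 1 read. At that scale 70.8 to 73.2% of Neuro2a and 79.9 to 82.4% of mouse values above 0 were whole within 0.01 of a read, so no count test was run. The floor of 3 reads covers counting error only. Exon lengths came from the basic GENCODE M21 annotation on GRCm38, not the authors' build. The order of genes per kb rests on these lengths, and other annotations were not tried.

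Neuro2a libraries with the same replicate number deviated together from their group means (correlations of 0.305 to 0.499 across genes), but not from the means of group and set (-0.071 to 0.023), so same-numbered libraries pair through the library set alone. The treatment fit has no block, and the fit with one is given beside it. Alternatives covered the pseudocount, the filter, scaling, the block, the sets and each library left out. The text names all 7 members, Scn2a, the pathway genes Abce1, Pde12 and Akap7, and the other Oas1 paralogs. It also names the 3 sensors and the 3 signalling genes with the largest Neuro2a difference, and the 2 genes nearest each member. Some genes of these lists are not reported here. The members and lists were chosen with earlier results of these data known. Oas2 and Oas1b promoters were not analysed here. Het CRISPRa replicate 1 was singled out in the nuclei, and Rigi, Eif2ak2 and the other genes highest in it were named, after their values were seen.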

Additional observations from a re-analysis of the deposited data

Results flagged for a closer look

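The CRISPRa difference was larger in library set 8 than in set 7, past the threshold, for 6 of the 7 members and for Oas1g (limma, adjusted over all genes). Of 14398 tested genes, 21.8% passed and 9.42% upwards. A set difference of interferon genes was already known, and the same libraries served to pick the genes. These calls are therefore a description and no independent support. Oas1c did not pass, with a gap of -0.177 (adjusted p = 0.518 by limma). The gap on the log2 scale was 1.535 for Oas3, 1.436 for Oas2, 0.765 for Oas1g, 0.655 for Oas1a, 0.374 for Oasl2, 0.271 for Oas1b and 0.257 for Oasl1. In each of these genes the CRISPRa difference was upwards in both sets. The call of Oas1g was lost with robust eBayes (adjusted p = 0.0532 by limma), that of Oas1b in 7 of 21 alternatives and that of Oasl1 in 11 of 21. The sets also differed in sadCas9-VP64 reads, whose part in these gaps was not tested.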

How the results depend on the processing

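The members' directions held in the treatment comparison under all 24 alternatives for each gene. The count of members called there was 7, and with 1 library left out it ranged from 4 to 7. It was 4 without CRISPRa replicate 1, 2 or 3 or VP64 only replicate 4 or 5, with Oas1a, Oas1c and Oas2 lost. With 1 library left out, calls over all genes ranged over 1492 to 2404, against 2166. Oas1a and Oas2 also lost their calls with no filter, where 1570 genes were called, and Oas1a under median-of-ratios scaling. Since this contrast served to pick the genes, nothing is read from these counts. The replicate block left the count of members called at 7 and changed no other call of a member, while calls over all genes went to 4513. A set covariate gave 5685, set 7 alone 6684 and set 8 alone 3490. Under median-of-ratios and quantile scaling 49.1 and 51.1% of called genes were higher, against 66.6%; for the set difference in CRISPRa it was 50.7 and 50%, against 39%, and for the gap between sets 58.3 and 51.9%, against 43.3%. Mouse libraries with the same number had correlations of -0.084 to 0.024 for Het CRISPRa and Het, and -0.11 to 0.109 for Het CRISPRa and WT. For Het and WT they were 0.034 to 0.418, so a shared deviation of those libraries is not excluded. With a replicate block, 0 members were called. Calls over all genes were 31 for Het CRISPRa minus Het, 0 for Het CRISPRa minus WT and 2 for Het minus WT. Without the block they were 8, 1 and 0.

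Signs turned in small differences, and the cause was not tested. With median-of-ratios scaling, the treatment difference was -0.034 for Abce1 and -0.035 for Akap7, the Abce1 gap between sets 0.047, and Het minus WT 0.003 for Oas1b. With quantile scaling it was -0.067 for Akap7 (treatment), and for Het minus WT 0.063 for Oas1b and 0.006 for Oas2. Akap7 was at -0.137 in set 8 alone, and Oas1b at 0.052 for Het minus WT with a pseudocount of 0.1. With 1 library left out, the treatment difference ranged over -0.013 to 0.051 for Abce1 and -0.029 to 0.061 for Akap7; the VP64 only set difference over -0.012 to 0.062 for Pde12; the CRISPRa set difference over -0.017 to 0.066 for Oas1b; and the gap between sets over -0.037 to 0.05 for Abce1. For Het CRISPRa minus Het it ranged over -0.025 to 0.696 for Oas1c, and for Het CRISPRa minus WT over -0.145 to 0.272 for Oas1c, -0.022 to 0.168 for Abce1 and -0.242 to 0.019 for Pde12. For Het minus WT it ranged over -0.286 to 0.189 for Oas1b, -0.659 to 0.063 for Oas1c, -0.307 to 0.269 for Oas2 and -0.133 to 0.014 for Abce1. None of these was called. In nuclei, Oas1a, Oas3 and Oasl2 did not pass the filter of the limma fit. Depth limits Oas1a and Oas3 there, at 0 to 3 reads in every library.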
